A study of Mus musculus with 4 samples.

Results

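Notch pathway genes were described in a list of open chromatin regions from mouse salivary gland organoids (mSGOs). The members were 10 genes taken by name, of 21440 protein-coding genes with a known strand: the ligand genes Jag1, Jag2, Dll1 and Dll4, the receptor genes Notch1, Notch2 and Notch3, the nuclear factor gene Rbpj, and the target genes Hes1 and Hey1. They were located in a RefSeq gene table of the mouse build GRCm38, and 79 of the 32011 distinct regions in the list lay at, inside or nearest to them. Bulk ATAC-seq, in which the Tn5 transposase inserts adapters where DNA is accessible, was run on 4 samples of mSGOs grown from submandibular glands of C57BL/6 mice. There were 2 samples of passage 1 and 2 of passage 2, and within each passage 1 sample was labelled as from a mouse of 12 weeks and 1 as from a mouse of 3 months. None of the mSGOs was irradiated. All were grown in Matrigel with medium that held EGF, FGF2, R-spondin1 and Wnt3a.

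The samples share 1 deposited list, so no gene has a value per sample, and the spread between replicates and the depth behind each region are unknown. All values below are therefore descriptions without a test. In a bulk list, fewer cells with an open region and a less open region in each cell cannot be told apart. As a check of the label, 6 of 10 salivary epithelial marker genes (Epcam, Cdh1, Krt5, Krt14, Krt8 and Sox9) had a region within 1 kb of the 5′ end. Krt18, Krt7, Trp63 and Aqp5 had none there, and the share over all protein-coding genes was 38.3%. Such a region was found at 0 of 6 endothelial genes, 0 of 6 fibroblast and mural genes and 1 of 6 immune genes (Cd68). The endothelial genes nevertheless had 24 distal regions nearest to their 5′ ends. The epithelial genes had 48, of which 23 at Sox9, the fibroblast and mural genes 2 and the immune genes 2. Over all protein-coding genes the mean was 1.11 per gene. These numbers were not adjusted for the length of sequence nearest to each 5′ end.

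Notch signalling passes between touching cells. A Jagged or Delta-like ligand on one cell binds a Notch receptor on its neighbour, proteases including γ-secretase then free the intracellular part of the receptor, and this part enters the nucleus and joins RBPJ and Mastermind proteins on DNA. HES and HEY genes, which encode basic helix-loop-helix repressors, are classical targets of this complex, and in many epithelia the pathway sets the balance between progenitor and differentiated cells.

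The sequences in front of 5 transcription starts are shown because they place the listed regions at the base. They include members with a listed region in this stretch and members without one. The list gives no signal where no region was called, so a promoter without a region was not shown to be closed. Each is the 250 bases before a start, 5′ to 3′ on the strand of the gene, from the RefSeq promoter table of GRCm38.p6, which matched 8 of the 10 genes (all but Hes1 and Hey1) with 10 promoters. Capitals mark bases inside a region of the deposited list. Jag1 (chr2:137116521-137116770, minus strand) had 150 of 250 bases in a region, Notch2 (chr3:98013288-98013537, plus strand) had 250 and Rbpj (chr5:53590096-53590345, plus strand, first listed start) had 241. Notch1 (chr2:26503823-26504072, minus strand) and Dll4 (chr2:119325534-119325783, plus strand) had none.
Jag1: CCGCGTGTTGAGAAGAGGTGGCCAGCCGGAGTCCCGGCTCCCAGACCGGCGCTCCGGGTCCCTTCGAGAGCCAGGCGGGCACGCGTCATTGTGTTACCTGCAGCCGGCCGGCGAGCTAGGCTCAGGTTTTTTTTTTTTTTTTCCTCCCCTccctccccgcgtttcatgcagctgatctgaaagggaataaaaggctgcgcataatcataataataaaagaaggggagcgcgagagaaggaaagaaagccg
Notch2: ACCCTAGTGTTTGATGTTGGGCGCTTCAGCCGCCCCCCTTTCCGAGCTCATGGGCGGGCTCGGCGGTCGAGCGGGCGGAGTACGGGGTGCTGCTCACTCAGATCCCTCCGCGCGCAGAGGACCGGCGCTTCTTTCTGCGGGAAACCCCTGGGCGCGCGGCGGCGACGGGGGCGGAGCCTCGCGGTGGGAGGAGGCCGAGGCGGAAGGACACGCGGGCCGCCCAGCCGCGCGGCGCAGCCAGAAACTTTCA
Rbpj: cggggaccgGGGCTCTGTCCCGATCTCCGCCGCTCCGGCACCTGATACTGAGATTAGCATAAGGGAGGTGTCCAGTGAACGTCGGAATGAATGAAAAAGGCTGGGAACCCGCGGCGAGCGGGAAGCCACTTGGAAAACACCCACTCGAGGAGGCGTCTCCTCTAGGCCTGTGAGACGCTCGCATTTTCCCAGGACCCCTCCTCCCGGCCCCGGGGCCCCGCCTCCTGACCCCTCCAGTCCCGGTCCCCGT
Notch1: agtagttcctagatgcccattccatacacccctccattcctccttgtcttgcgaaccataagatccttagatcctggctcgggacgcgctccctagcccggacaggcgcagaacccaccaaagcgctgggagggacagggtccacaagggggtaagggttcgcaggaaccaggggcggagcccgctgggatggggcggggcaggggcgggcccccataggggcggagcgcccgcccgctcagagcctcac
Dll4: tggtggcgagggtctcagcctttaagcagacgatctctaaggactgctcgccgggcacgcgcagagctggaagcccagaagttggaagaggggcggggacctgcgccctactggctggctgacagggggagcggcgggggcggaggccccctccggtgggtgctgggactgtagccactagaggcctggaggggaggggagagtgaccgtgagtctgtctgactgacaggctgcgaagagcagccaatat
In Jag1 the capitals stop short of the start, since the region lies wholly upstream of it. In Notch2 the whole stretch is open, and in Rbpj all but the first bases.

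A region was counted at a 5′ end where its midpoint lay within 1 kb of the outermost 5′ end of the gene. This was so for 4 of the 10 genes (Jag1, Notch2, Hes1 and Hey1), beside 38.3% of all protein-coding genes. When any start that the promoter table lists for a gene was also allowed, Jag2 and Rbpj were added, giving 6 of 10 beside 41.8%. Regions with their midpoint inside the gene were found in 6 of 10 (Jag1, Jag2, Notch1, Notch2, Notch3 and Rbpj), beside 39.5%. The last class, distal regions, lay over 1 kb from every protein-coding 5′ end and were given to the gene with the nearest one. At least 1 distal region belonged to 9 of 10 members, all but Dll4, beside 40.3%. The members had from 0 to 26 distal regions and from 0 to 2 regions at the 5′ end. These ranges are not comparable, since distal regions were counted over far more sequence than 1 kb on each side of an end.

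**Figure D1:**
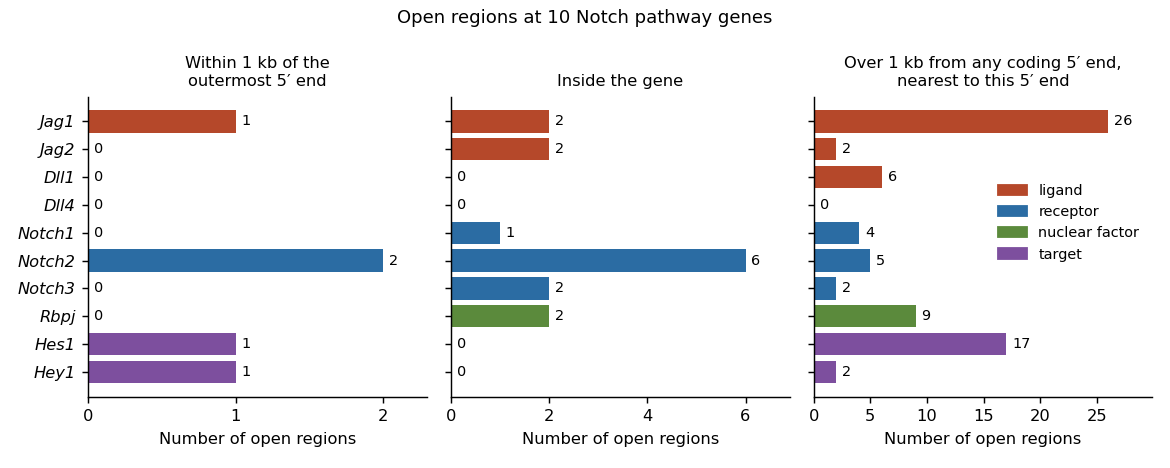
Number of distinct open regions (x axis) for each of the 10 genes (y axis), within 1 kb of the outermost 5′ end, inside the gene, and distal but nearest to the 5′ end, with colours for the role of the gene. Jag1 with 26 and Hes1 with 17 have the longest bars among distal regions, Notch2 with 6 among regions inside a gene, and Dll4 has 0 in all 3 panels.

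The ligands were the most uneven group. Jag1, a Jagged ligand needed in many developing organs, held 26 of the 34 distal regions of the 4 ligand genes and the only ligand region within 1 kb of an outermost 5′ end. That region (chr2:137116621-137117382, 762 bp) had its midpoint 481 bp upstream, a fold over the local background of 6.22 at its strongest summit and 4 summits. Its IDR score, which measures how reproducible a region was between the sets of reads compared and is capped at 1000, was 1000.

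Jag2, the other Jagged ligand, had regions only near its start and inside the gene. The nearer (chr12:112928377-112928647) lay 1300 bp downstream of the outermost 5′ end and 983 bp from the other listed start, with a fold of 5.04 and an IDR score of 686. A second region followed at 2.72 kb with a fold of 4.36. Both folds were below the lower quartile of all distal regions in the list, 5.58.

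Dll1, a Delta-like ligand, had no region at its 5′ end or inside the gene and 6 distal regions, 5 of them downstream. The nearest (chr17:15380582-15380940) lay 3829 bp upstream with a fold of 4.05, and the farthest lay 152.8 kb downstream with a fold of 6.59. Between them the fold was highest at 50.5 kb downstream (chr17:15325955-15326903), where a region of 949 bp with 5 summits reached 8.90. Dll4, the Delta-like ligand best known from sprouting endothelium, had no region in any class. The region closest to its 5′ end was 25.2 kb downstream with a fold of 7.98, and that region lay 246 bp from the 5′ end of the neighbouring gene Chac1.

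Among the receptors, Notch2 carried most of the regions. It had 2 regions at the 5′ end, 1 whose midpoint was 73 bp upstream and which covered the start (chr3:98013253-98013677, fold 5.19) and 1 whose midpoint was 576 bp downstream (chr3:98013959-98014269, fold 7.30). Inside the gene lay 6 regions in all, up to 85.3 kb downstream. The last of these (chr3:98098636-98099063) had the highest fold of the Notch2 regions, 11.8, but was nearer to the 5′ end of Adam30, so it was not counted among the 5 distal regions of Notch2. A region 14.9 kb upstream reached 10.3, and the region at 29.7 kb downstream 9.82.

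Notch1, a receptor used in many epithelia, had no region within 1 kb of its 5′ end. The nearest (chr2:26500905-26501158) lay inside the gene, 2791 bp downstream, with a fold of 4.03 and an IDR score of 566, close to the lowest score in the list, 540. The other 3 distal regions were upstream at 3.78, 22.1 and 28.2 kb with folds from 5.29 to 5.64. All 4 folds were below 6.87, the median of distal regions.

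Notch3, a receptor prominent in mural cells and in some epithelia, likewise had no region at its 5′ end. It had 2 regions inside the gene, at 4.52 kb (chr17:32162224-32162521, fold 6.08) and 5.62 kb downstream (fold 6.70, IDR score 1000). The 3 receptors together had 11 distal regions and 9 inside the genes, and the 2 target genes had 19 distal regions and 0 inside. The receptor genes are far longer, at 45.9 to 136.8 kb, than Hes1 (2.44 kb) and Hey1 (3.68 kb), so the counts inside genes are not comparable between these roles.

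Rbpj encodes the DNA-binding protein that joins the receptor fragment at target genes. Its outermost 5′ end had no region nearby, but both starts of the promoter table lie 34.6 and 34.7 kb downstream of that end, and 1 region (chr5:53590105-53590762, 658 bp, fold 7.50) covered both. A second region (chr5:53588907-53589644, 738 bp) ended 460 bp before it and had a fold of 10.9. By the rule of the outermost end, both were counted as distal. The remaining 7 distal regions formed a row from 46.1 to 111.6 kb upstream, with folds from 6.87 to 13.6. The highest of these lay 64.9 kb upstream (chr5:53490673-53491123), and the farthest, at 111.6 kb, had a fold of 10.8. Of the 9 distal regions of Rbpj, 8 were above the median fold of all distal regions.

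Both target genes had a region over the 5′ end. At Hes1, a repressor that Notch induces in many progenitor cells, the region (chr16:30065094-30065451) had its midpoint 85 bp upstream, a fold of 4.92 and an IDR score of 1000. At Hey1, a related repressor, the region (chr3:8667012-8667915) was 904 bp wide with 5 summits and a midpoint 425 bp upstream, and its fold was 5.18. Hey1 had only 2 distal regions, at 50.6 kb upstream (fold 6.43) and 99.8 kb upstream (fold 4.58). Hes1 had 17, so it held most of the distal regions of the targets, as Jag1 did of the ligands.

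**Figure D2:**
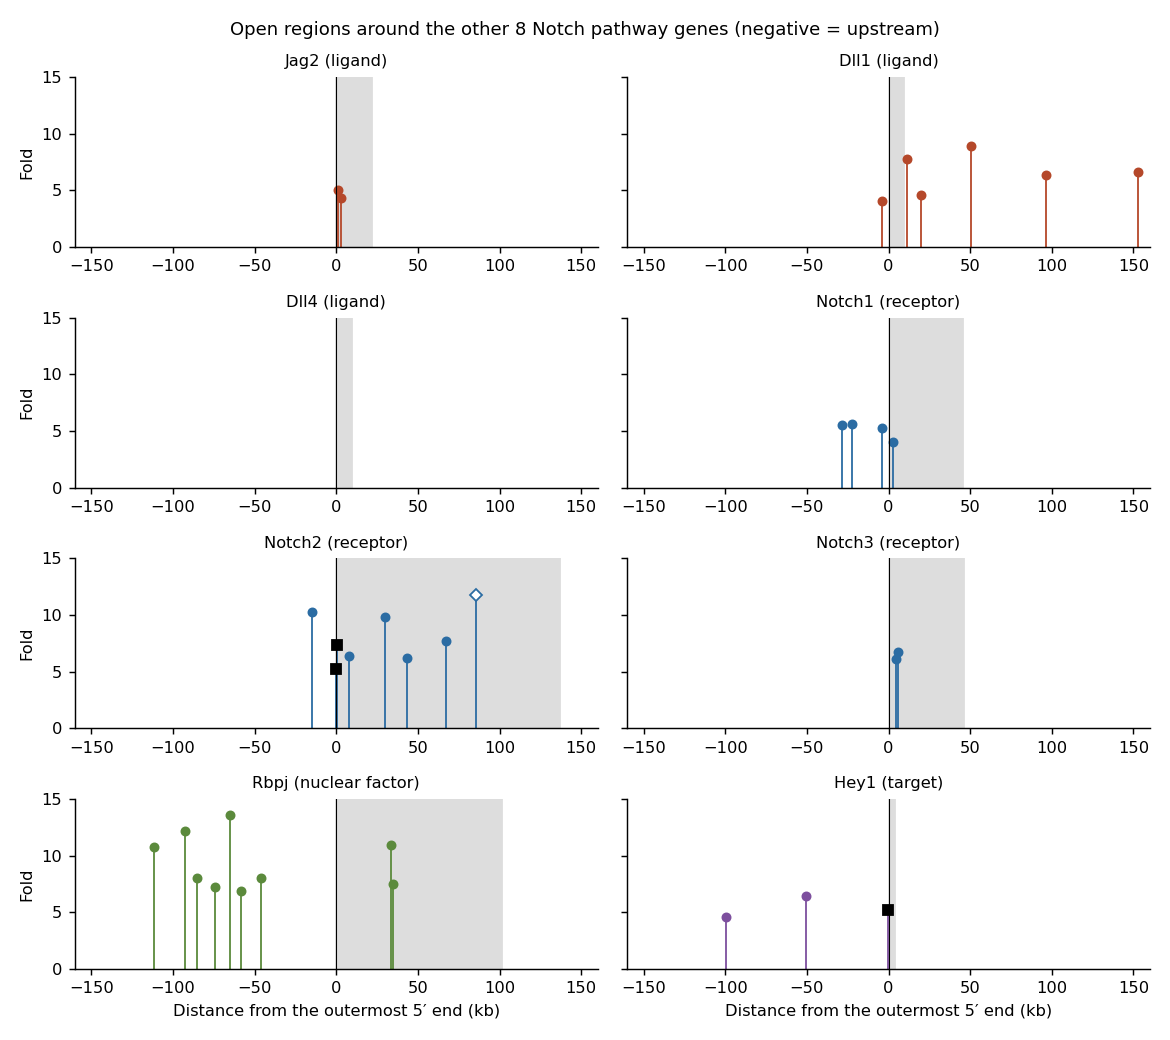
Fold over the local background (y axis) against distance from the outermost 5′ end in kb (x axis, negative is upstream) for the 8 genes other than Jag1 and Hes1. Filled circles are distal regions, black squares are regions at the 5′ end, the open diamond is the Notch2 region of fold 11.8 that is nearer to Adam30, and grey marks the gene; Dll4 is empty, and 7 of the 9 Rbpj regions lie upstream between 46.1 and 111.6 kb.

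The folds at the members' outermost 5′ ends were compared with those of all regions at protein-coding 5′ ends. The 5 regions at the 5′ ends of Jag1, Notch2, Hes1 and Hey1 had folds from 4.92 to 7.30 with a median of 5.19. All 5 were below 7.90, the median of regions at protein-coding 5′ ends. Within that class the Jag1 region stood at the 27.5th percentile, the Hes1 region at the 8.77th, the Hey1 region at the 11.9th and the Notch2 region over the start at the 12.0th, while the downstream Notch2 region stood at the 42.3rd. The region over the listed starts of Rbpj, which does not lie at the outermost end and is not among these 5, had a fold of 7.50. The q-value gave another order. The Jag1, Hes1 and downstream Notch2 regions were among the 16006 of 32011 regions with the lowest q-values. Their −log10 q-values were 31.0, 28.3 and 30.8, beside 16.3 for Hey1 and 15.6 for the Notch2 region over the start.

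The distal regions of the members were not set apart by height. Their folds had a median of 7.19 (quartiles 5.71 and 9.65) over 73 regions, against 6.87 over all distal regions, and 38 of 73 (52.1%) were above that value. By role, the median was 7.17 for the ligands, 6.18 for the receptors, 8.06 for Rbpj and 6.80 for the targets. An IDR score of 1000 was given to 31 of the 73 (42.5%), beside 40.9% of all distal regions. The 8 members' regions above the 90th percentile of all distal regions, 11.4, were 5 of Jag1, 2 of Rbpj and 1 of Hes1.

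**Figure D3:**
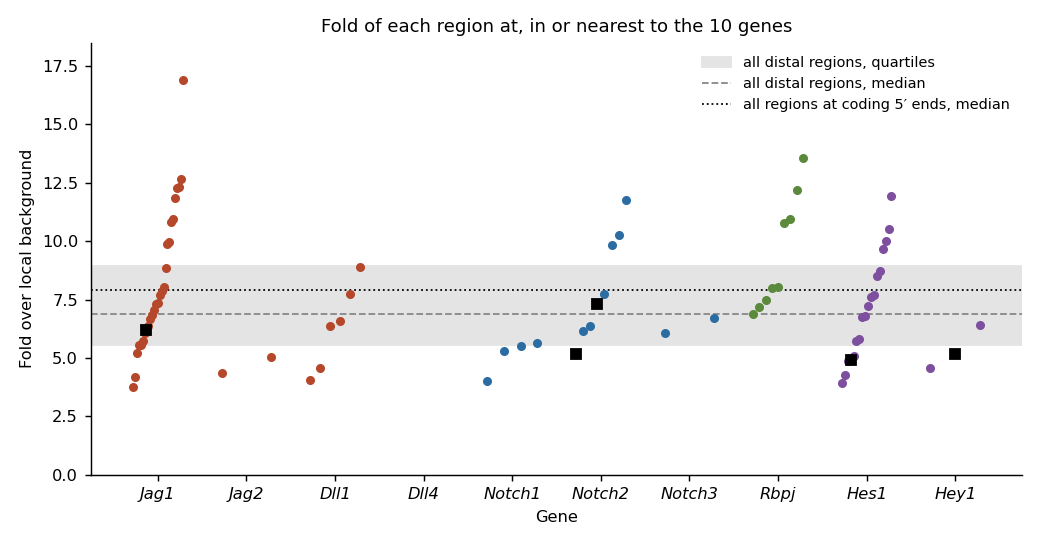
Fold over the local background (y axis) of each region at, in or nearest to each of the 10 genes (x axis), ordered by fold within a gene, with black squares for regions at the 5′ end and circles for the rest. All 5 black squares lie below the dotted line at 7.90, the median of regions at protein-coding 5′ ends, and Dll4 has no point.

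Numbers of distal regions depend on how much sequence lies nearest to a 5′ end. This stretch, which runs to the midpoint towards the next protein-coding 5′ end on each side, was 682.6 kb for Jag1, 344.1 kb for Hes1, 220.3 kb for Rbpj and 207.2 kb for Hey1, against a median of 50.4 kb over all protein-coding genes. Per 100 kb of stretch, Jag1 had 3.81 distal regions, Hes1 4.94, Rbpj 4.09 and Hey1 0.965. The shorter stretches of Notch1 (67.4 kb) and Jag2 (36.9 kb) gave 5.94 and 5.43 from 4 and 2 regions. The receptors as a group had 4.24 per 100 kb, the ligands 3.66 and the targets 3.45. The 10 genes together had 3.73, and all protein-coding genes together 0.895.

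Measured against genes with stretches of like length, Jag1 and Hes1 stood above the 99th percentile. Over 346 protein-coding genes with a stretch close to that of Jag1, the median was 2 distal regions and the 99th percentile 21.1, against 26 for Jag1. Over 590 genes with a stretch close to that of Hes1, the median was 2 and the 99th percentile 15, against 17 for Hes1. Hey1, with 2, lay near the median of its length class.

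**Figure D4:**
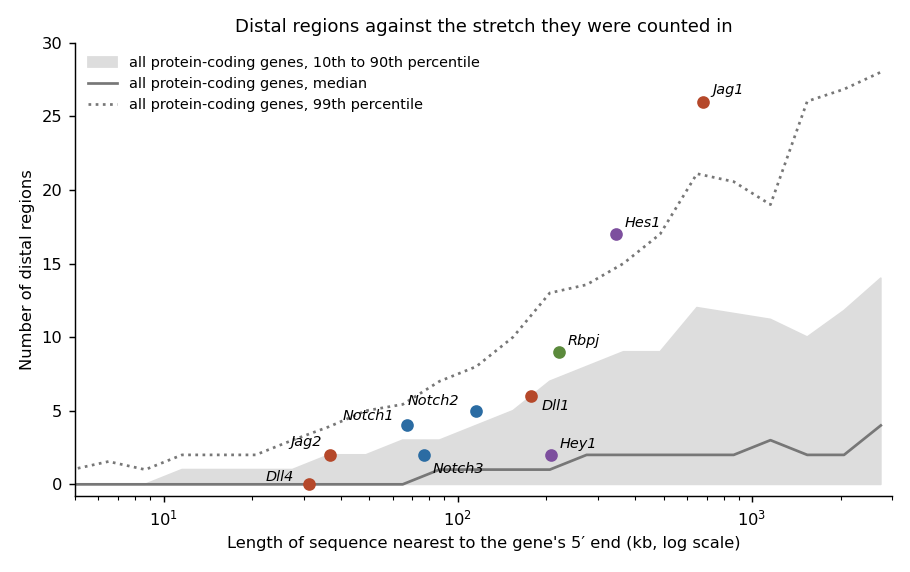
Number of distal regions (y axis) against the length of sequence nearest to the 5′ end in kb (x axis, log scale) for the 10 genes, coloured by role, with the median, the 10th to 90th percentile band and the 99th percentile of all protein-coding genes of like length. Jag1 at 26 and Hes1 at 17 lie above the dotted 99th percentile line, and Dll4 lies at 0.

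Around Jag1 the regions fell into separate blocks. No distal region lay within 50 kb upstream, and the first on that side was at 74.5 kb. From there to 146.6 kb upstream lay 5 regions, which included the one of highest fold at the locus, 16.9 (chr2:137204469-137205136, 668 bp, 88.3 kb upstream). A gap of 143.3 kb without a region followed. Beyond it, 13 regions ran from 290.2 to 568.0 kb upstream with a median fold of 8.03. They included the regions of next highest fold at the locus, 12.7 (chr2:137455479-137456261, 339.4 kb) and 12.3 (chr2:137413287-137413922, 297.1 kb). The farthest of the 26 (chr2:137684287-137684682, 568.0 kb) had a fold of 7.68.

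Downstream of the Jag1 5′ end the regions were closer together, counted up to the midpoints towards the next protein-coding 5′ ends. There were 8 in 112.6 kb, or 7.11 per 100 kb, against 18 in 570.0 kb, or 3.16 per 100 kb, upstream. Inside the gene, a region 18.1 kb downstream (chr2:137097970-137098951) was the widest at 982 bp, with 5 summits and a fold of 10.8, and another at 6.56 kb had the lowest fold of the locus, 3.78. Within 50 kb downstream 5 regions had a median fold of 7.03, and 3 farther ones had a median of 10.9. Close neighbours occurred on both sides, with gaps of 70 bp between regions 489.4 and 489.8 kb upstream, 77 bp between regions 108.5 and 108.9 kb upstream and 138 bp between regions 35.4 and 35.8 kb downstream.

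The next protein-coding 5′ ends to Jag1 were those of Btbd3, 1140 kb upstream, and Mkks, 225.1 kb downstream. Over the whole distance to these ends, 9 distal regions lay towards Mkks, or 3.998 per 100 kb, and 31 towards Btbd3, or 2.72. The contrast of the sides was therefore smaller than up to the midpoints. Of 31 distal regions between the Jag1 and Btbd3 5′ ends, 18 were nearer to Jag1 and 13 to Btbd3, so the midpoint and not a gap in the regions set the outer limit of the Jag1 count. When 5′ ends of noncoding genes were also considered, 8 of the 26 regions stayed nearest to Jag1, while 10 were nearest to Gm14064, 5 to Gm39944 and 3 to Gm14055. Distance alone does not link a region to the gene it acts on, and no contact or expression value was used here.

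**Figure D5:**
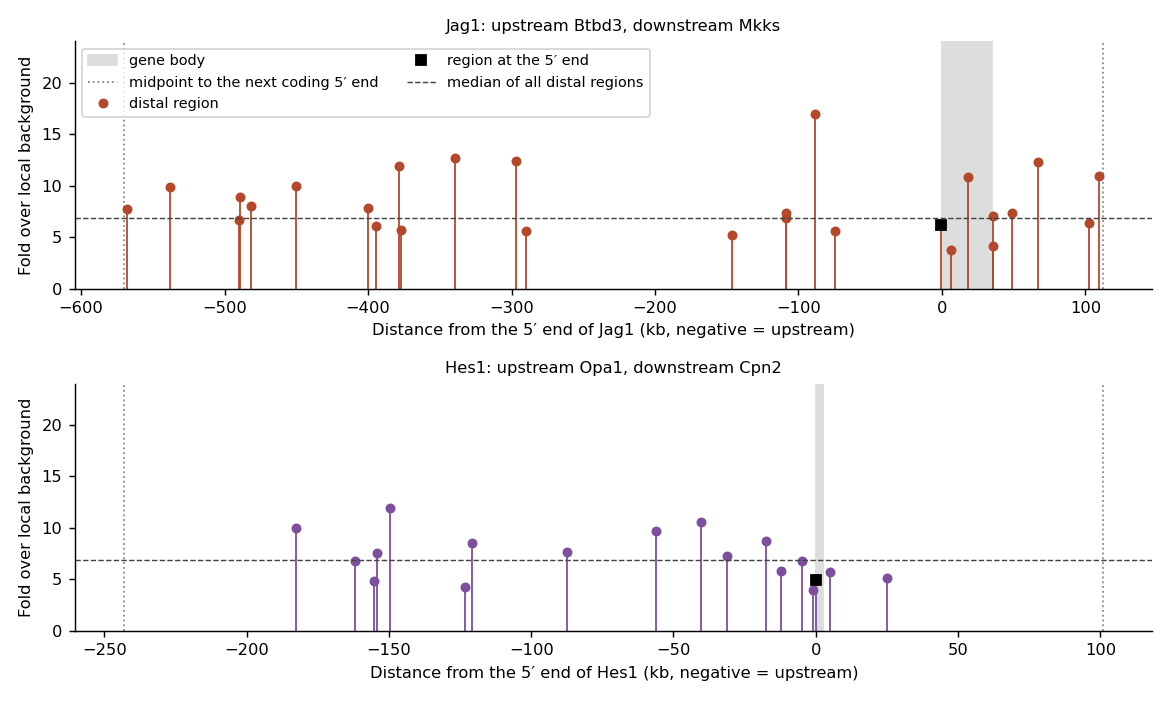
Fold over the local background (y axis) against distance from the 5′ end in kb (x axis, negative is upstream) for the regions nearest to Jag1 and to Hes1, with the gene in grey, the region at the 5′ end as a black square and dotted lines at the midpoints to the next protein-coding 5′ ends. At Jag1 no region lies between 146.6 and 290.2 kb upstream and the highest reaches 16.9; at Hes1 15 of 17 lie upstream and none beyond 182.6 kb.

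At Hes1 the regions lay mostly on 1 side. There were 15 upstream in 243.0 kb, or 6.17 per 100 kb, and 2 downstream in 101.1 kb, or 1.98 per 100 kb. The upstream regions began at the promoter, with a region 1.14 kb from the 5′ end just beyond the limit of 1 kb (fold 3.94, IDR score 1000) and further ones at 4.76 kb (fold 6.74), 12.1 kb (5.80), 17.7 kb (8.72) and 31.2 kb (7.24). This differs from Jag1, where the promoter region had no neighbour within 50 kb upstream. The region with the second highest fold of Hes1 lay at 40.4 kb (chr16:30024729-30025206, 10.5).

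Farther out, 5 Hes1 regions lay between 149.7 and 182.6 kb upstream. The highest fold, 11.9, marked their near edge (chr16:29915330-29915915, 149.7 kb), and a region of fold 10.0 their far edge (chr16:29882502-29883007, 182.6 kb). The median fold was 6.99 for the 6 upstream regions within 50 kb and 7.69 for the 9 beyond. Downstream, the regions at 5.16 and 25.2 kb had folds of 5.71 and 5.10. Upstream of Hes1, Opa1 had the next protein-coding 5′ end at 486.1 kb, and 15 of the 20 distal regions between them were nearer to Hes1. On the other side Cpn2 followed at 202.2 kb, with 2 of 5 regions nearer to Hes1. Over the whole distance between the 5′ ends, the contrast of the sides was smaller than up to the midpoints. There were 4.11 distal regions per 100 kb towards Opa1 and 2.47 towards Cpn2. With noncoding 5′ ends considered, 3 of the 17 stayed nearest to Hes1 and 5 were nearest to Gm32740.

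The promoter sequences of the members were compared for base composition and short motifs, in windows of 300 bases that run from 250 before to 50 after each start. The number of CpG dinucleotides was 22 for Jag1, 41 for Notch2 and 26 and 28 for the Rbpj starts, against a median of 7 over all promoters in the table. Members without a region at the 5′ end were also above that median, with 17 for Dll4, 23 for Notch1, 25 for Notch3 and 15 and 24 for the Dll1 starts. Jag2 had the highest number, 63, and a GC content of 86.0%. Of all protein-coding genes whose richest promoter had 20 to 29 CpG, 71.0% had a region within 1 kb of a listed or outermost start, against 5.18% of those with 0 to 4. Of the members in the former class, Jag1 and Rbpj had such a region, while Notch1, Notch3 and Dll1 had none. The share was 66.9% for 30 to 99 CpG, the class of Notch2 and Jag2, which both had one.

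RBPJ recognises a core written here as TGGGAA, found on either strand in 25.6% of 32851 promoters, and HES proteins a site written as CACGNG, found in 27.5%. Of the 10 promoters searched, those of all members but Hes1 and Hey1, TGGGAA was found in both Rbpj promoters and in no other. It lay 149 bases upstream of the first listed start on the same strand and 65 bases upstream on the opposite strand. Both matches were within the open region and are legible in the sequence above. The Rbpj windows overlap, and the only match of the second, 205 bases upstream of its start, is the same site as that at 65 bases. The longer GTGGGAA, which contains TGGGAA, and the TATA box TATAAA were in none of these 10 promoters, beside 6.38% and 13.6% of all. CACGNG was found at 249 bases (opposite strand) and 171 bases upstream in the Jag1 promoter and at 42 bases upstream in the Notch2 promoter, all within open regions. It was also found in the promoters of Jag2, Dll1, Dll4 and Notch3, outside any region, and not in those of Notch1 and Rbpj. CACGNG itself holds a CpG, and these 10 promoters had 15 to 63 CpG against a median of 7. The 27.5% over all promoters is therefore not a background of like composition. CCAAT, the NF-Y site, was in the promoters of Dll4 and of the second Dll1 start, beside 37.4% of all. A match of letters is a description of the sequence and not of binding.

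The rest of the pathway was counted from a list of 44 other genes, all found in the table. Of these, 26 (59.1%) had a region within 1 kb of the outermost 5′ end and 29 (65.9%) at any listed start, beside 38.3% and 41.8% of protein-coding genes. Most of the 26 were trafficking, protease and nuclear cofactor genes. Of the 11 genes for ligand and receptor trafficking 9 had such a region, with folds of 15.9 at Mib1, an E3 ligase that drives ligand endocytosis, and 15.1 at Numb, an inhibitor of the receptor. Of the 8 protease genes 6 had one, among them Adam17 with 11.4 and Adam10 with 10.8, which cut the receptor at the cell surface. Of the 8 nuclear cofactor genes 7 had one, among them Maml1 with 14.5, a Mastermind coactivator.

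The remaining groups had fewer. None of the 4 other ligand and receptor genes (Dll3, Dlk1, Dlk2 and Notch4) had a region at the outermost 5′ end, and Dlk2 had one at another listed start. Of the 5 glycosyltransferase genes only Pofut1, which adds O-fucose to the receptor, had one, with a fold of 4.33. Of the 8 other targets 3 had one, with folds of 18.4 at Hey2, 6.33 at Hes6 and 5.87 at Nrarp. Maml3 had 12 distal regions and Maml2 had 8, both below the 26 of Jag1 and the 17 of Hes1. Per 100 kb of stretch, Maml3 had 3.80 and Maml2 3.20, beside 3.81 for Jag1 and 4.94 for Hes1. The lowest numbers could not be ordered because 24 of the 44 genes were tied at 0. Maml2 also had 17 regions inside the gene, more than the 15 inside the 10 members together.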

How the data were processed

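ATAC-seq libraries of 4 mSGO samples were aligned and their peaks called by the authors with the ENCODE ATAC-seq pipeline, whose version and filters are not given in the sources used here. The submitters' processing notes also name HOMER and GRCm39, with no role. Each line of the deposited list gives a region, the offset of 1 summit, an IDR score, the fold at the summit (a ratio to local background), and p-values and q-values as −log10, which come from the authors' own peak calling; the p-values were not used. The list was taken to be the consensus file of all samples, although its number of regions differs from the number stated for that file. Depth per sample is unknown, and the only precision is that of the list itself.

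The 69545 lines were joined into 32011 distinct regions, each with the values of its strongest summit. The list was read as GRCm38, since regions passed the GRCm39 end on 8 of 21 chromosomes, and 38.3% of protein-coding 5′ ends had a region within 1 kb with GRCm38.p6 positions against 5.04% with GRCm39 positions. Genes came from RefSeq, and strand from its GRCm38.p6 promoter table (17492 protein-coding genes) or, by name and chromosome, from GENCODE release 39 (3948). These sources differed for 125 of 22110 genes. Exon and intron were not assigned.

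Regions were counted by midpoint within 1 kb of the outermost 5′ end, inside the gene, or as distal. No test was run, for lack of values per sample. The members and all lists were chosen with earlier results of these data known. Named were all members, the coding neighbours of Jag1 and Hes1, and by rule the highest, nearest and farthest regions. Of the other pathway genes, those with most distal regions were named by rule, except 1 that is not reported here, and further ones after their values were seen. The alternatives that use listed starts were chosen after seeing the data. Counting was tested on simulated data of 200 genes. Python 3.11.15, numpy 2.4.6, pandas 2.3.3 and matplotlib 3.10.9 were used.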

Additional observations from a re-analysis of the deposited data

How the results depend on the processing

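The number of members with a region at the 5′ end, 4 within 1 kb, was 4 within 500 bp and 5 within 2 kb (with Jag2). It was 4 where the region only had to overlap the window and 3 among the regions with the lowest q-values (without Hey1). At any listed start, a choice made after seeing the data, it was 6. Over all protein-coding genes the share was 38.3% within 1 kb and 41.8% at any listed start. That share is not given here for the other settings, so their counts cannot be set beside it. The 15 regions inside members became 38 when every summit line was counted, 18 with any overlap and 8 among the 16006 regions with the lowest q-values. The 73 distal regions became 21 when noncoding 5′ ends competed, 36 among the regions with the lowest q-values and 46 within 100 kb, but 71 beyond 2 kb and 70 with every listed start. For Jag1 the distal number was 8, 13 and 8 under the first 3 of these, and for Hes1 3, 9 and 10. The median fold of the regions at members' 5′ ends, 5.19, fell to 4.74 with the mean over summits. Of 45 alternatives for single genes, 18 moved the count past 1.5 times and 27 did not. No paired analysis was possible because values per sample are not given in the list, and for the same reason no replicate was left out. Which distal region acts on which gene was not tested.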
